A study of Mus musculus with 4 samples.

Results

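CD8 T cells were followed in single-cell RNA libraries of tibial muscle from *Nse-Bmp4* mice, a model of heterotopic ossification in which muscle injury is followed by cartilage and bone. The cells were chosen by their UMI counts (unique molecular identifiers, 1 for each captured transcript). A cell was kept with a mitochondrial share of 10% or less, when it held at least 1 UMI of *Cd3e*, *Cd3d* and *Cd3g* together and at least 1 of *Cd8a* and *Cd8b1* together, and when it held 0 UMIs of *Cd4*, *Foxp3*, *Trdc*, *Ncr1* and *Csf1r*. This rule found 1151 cells among 62665, of which 59824 were within the mitochondrial limit. The libraries came from uninjured muscle (Uninjured) and from muscle 1, 3 and 7 dpi (days after injury) with cardiotoxin, a snake venom component that kills muscle fibres. All mice were C57BL/6 animals of 6 to 8 weeks, and all carried the *Nse-Bmp4* transgene, murine *Bmp4* under a rat neuron-specific enolase promoter, so none of the libraries was free of the transgene. Each library was made from 3 muscles mixed together. There was thus 1 library for each time point, with no replicate and no test between time points, and the intervals printed for a library cover counting error only.

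CD8 T cells recognise peptides on MHC class I through the T cell receptor and the CD8 co-receptor, a dimer of the *Cd8a* and *Cd8b1* products. Naive cells recirculate through lymph nodes and carry homing molecules such as CCR7, while effector and memory cells enter tissue, secrete interferon gamma and CCL5, and kill with perforin and granzymes. After muscle injury they are one of several lymphocyte types that enter the damaged tissue.

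The Uninjured, 1, 3 and 7 dpi libraries held 194, 280, 408 and 269 CD8 T cells. They summed to 1181315, 1585092, 1754442 and 1005474 UMIs, with medians of 4145, 4508, 2775 and 2459 UMIs a cell. As a share of all cells within the mitochondrial limit they made up 1.64% in Uninjured muscle (95% Clopper-Pearson interval 1.42 to 1.89). The share was 2.58% (2.29 to 2.90) at 1 dpi, 2.89% (2.62 to 3.18) at 3 dpi and 1.17% (1.03 to 1.32) at 7 dpi. The 2 early injury libraries thus held the larger shares and the 7 dpi library the smallest, but the order depended on the total. Mesenchymal cells (a *Pdgfra* UMI, no *Ptprc* or *Cd3* UMI) made up 68.6%, 31.0%, 36.3% and 22.3% of the libraries. With these left out of the total, a choice made after seeing the data, CD8 T cells made up 5.22% (4.53 to 5.98) in Uninjured muscle, 3.74% (3.32 to 4.19) at 1 dpi, 4.53% (4.11 to 4.98) at 3 dpi and 1.503% (1.33 to 1.69) at 7 dpi, so that the Uninjured share was no longer below those of 1 and 3 dpi, while 7 dpi was again lowest. For comparison, CD4 T cells (a *Cd3* and a *Cd4* UMI, none of the CD8 genes or the other excluded genes) made up 0.558%, 1.46%, 1.19% and 0.465%, in the same order. Natural killer (NK) cells (an *Ncr1* UMI, none of the *Cd3*, CD8, *Cd4* or other excluded genes) made up 0.702%, 2.28%, 2.63% and 1.67%. By these rules CD8 T cells outnumbered CD4 T cells in all 4 libraries, and at 7 dpi they were fewer than NK cells. However, 227, 356, 692 and 1481 cells met the CD8 rule except for a CD8 UMI and thus held no *Cd4* UMI either. These outnumbered the CD8 T cells in each library, so the order of CD8 and CD4 T cells holds only for cells that the rules could assign. Cells shared the same barcode in different libraries 30 to 95 times for each pair of libraries.

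**Figure D1:**
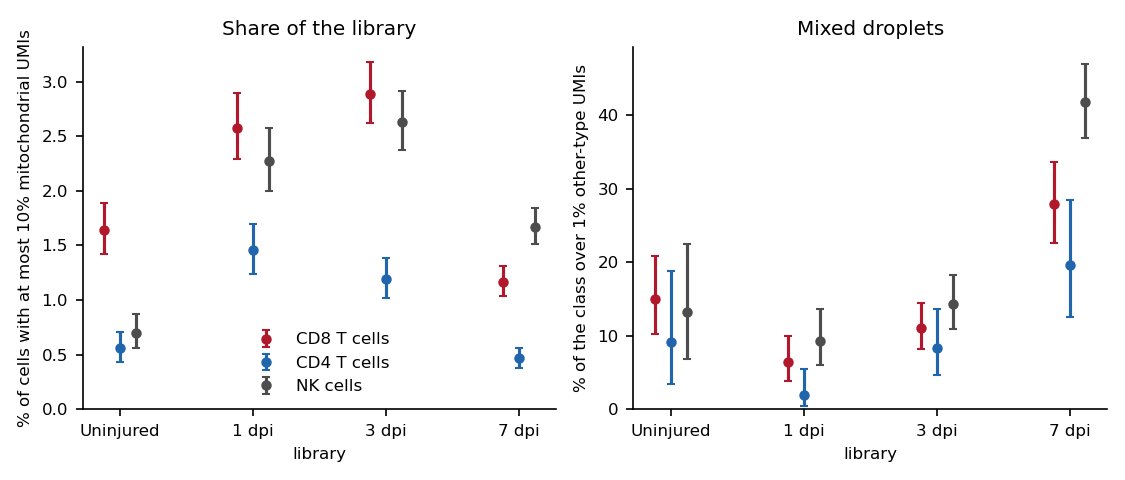
Left, CD8 T cells, CD4 T cells and NK cells as a percentage of cells with at most 10% mitochondrial UMIs in each library; right, the percentage of each class in which over 1% of UMIs came from genes of another cell type (mixed droplets). Points are single libraries and bars are 95% Clopper-Pearson intervals; the CD8 share ran from 1.17% at 7 dpi to 2.89% at 3 dpi, and mixed droplets were most frequent at 7 dpi in all 3 classes.

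The T cell side of the label was checked against genes that the rule did not use. A UMI of *Trac*, *Trbc1* or *Trbc2*, the constant regions of the alpha-beta T cell receptor, was present in 97.4%, 96.8%, 95.3% and 85.5% of the CD8 T cells of the Uninjured, 1, 3 and 7 dpi libraries. It was present in 0.974%, 2.59%, 3.03% and 7.71% of mesenchymal cells, and in 80.6%, 72.2%, 76.7% and 49.4% of cells that met the rule except for a CD8 UMI. These genes thus set T cells apart from mesenchymal cells but do not bear on CD8 itself. The rule sits on low counts, since 298 cells (25.9%) held exactly 1 CD8 UMI and 144 (12.5%) exactly 1 *Cd3* UMI, with 79 cells at both limits. *Cd8b1* was seen in 996 cells (86.5%) and *Cd8a* in 748 (65.0%), both in 593 (51.5%), and 155 cells had *Cd8a* alone. *Cd8b1* was at 665, 541, 410 and 555 CPM (counts per 1e+06 UMIs of these cells), *Cd8a* at 183, 329, 257 and 210 and *Cd3e* at 148, 277, 200 and 177, values that the rule itself chose. Just outside the rule, 2756 cells met everything except a CD8 UMI and 355 everything except a *Cd3* UMI. The exclusions removed fewer cells. *Cd4* removed 15, 9 of them with a single UMI, *Trdc* 19, *Ncr1* 8, *Foxp3* 2 and *Csf1r* 24. At 7 dpi the receptor was found in 99.4% of cells with at least 2 CD8 UMIs, but in 63.5% of those with 1. Genes of T cell precursors (*Rag1*, *Rag2*, *Dntt*, *Ptcra*) summed to 0, 4, 14 and 2 UMIs in the 4 libraries, and gamma-delta genes to 15, 66, 30 and 25, with *Tcrg-C2* the most abundant and *Trdv4* at 0 throughout.

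Many droplets also held RNA of other cells. Over 1% of UMIs came from a list of mesenchymal, cartilage, neutrophil, monocyte and macrophage, B cell, erythroid, endothelial or skeletal muscle genes in 29 CD8 T cells of Uninjured muscle (14.9%), 18 at 1 dpi (6.43%), 45 at 3 dpi (11.0%) and 75 at 7 dpi (27.9%). These mixed droplets were larger than the others, with medians of 13713, 12776.5, 11361 and 3776 UMIs against 3879, 4440.5, 2631 and 2236.5. The mesenchymal list was the main one, over its limit in 28, 18, 43 and 73 cells, and all 6 of its genes were detected in every library. It summed to 13513, 3867, 10105 and 19837 CPM in CD8 T cells, with *Dcn* the most abundant member in Uninjured and 1 dpi muscle, *Sparc* at 3 dpi and *Col1a1* at 7 dpi. Cartilage genes (*Col2a1*, *Acan*, *Col9a1*, *Matn1*) were at 0 UMIs in the first 3 libraries and at 3353 CPM at 7 dpi, where all 4 were detected and *Col2a1* led. Without the mixed droplets the mesenchymal list summed to 612, 483, 840 and 1855 CPM and the cartilage list at 7 dpi to 165. At 7 dpi a *Trac*, *Trbc1* or *Trbc2* UMI was found in 97.4% of the unmixed cells and in 54.7% of the mixed ones. Scrublet, a doublet caller, marked 25, 23, 37 and 21 of the CD8 T cells. Of the 1181315, 1585092, 1754442 and 1005474 UMIs of CD8 T cells, 734868, 1323617, 1179018 and 533100 lay outside mixed droplets. The CPM of all CD8 T cells thus count many UMIs of mixed droplets in the total, in unequal parts between libraries. The results below are for all CD8 T cells unless they are said to be without mixed droplets.

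To compare states between libraries of unequal depth, each cell was thinned to 1000 UMIs, which left out 1, 0, 13 and 6 shallower cells. A naive-gated cell had a UMI of any of 4 naive genes, among them *Ccr7*, *Lef1* and *Dapl1*, and none of *Ccl5*, *Nkg7*, *Gzma*, *Gzmb* or *Gzmk*, and an effector-gated cell the reverse. Naive-gated cells made up 40.9% (33.9 to 48.2) of CD8 T cells in Uninjured muscle, 27.1% (22.0 to 32.8) at 1 dpi, 8.61% (6.03 to 11.8) at 3 dpi and 20.5% (15.8 to 25.9) at 7 dpi. Effector-gated cells made up 21.2% (15.7 to 27.7), 40.4% (34.6 to 46.4), 67.8% (63.0 to 72.4) and 39.9% (34.0 to 46.1). The library at 3 dpi had the lowest naive share and the highest effector share, with intervals that did not overlap those of the other 3 libraries. Cells with genes of both gates made up 19.7%, 22.1%, 16.2% and 13.3%, and cells with neither 18.1%, 10.4%, 7.34% and 26.2%. Without mixed droplets the naive shares were 43.3%, 26.3%, 8.52% and 26.2% and the effector shares 20.7%, 40.8%, 69.6% and 41.9%, and the 3 dpi library was again lowest and highest. Unthinned cells gave naive shares of 22.7%, 17.9%, 5.88% and 20.4% and effector shares of 11.3%, 22.5%, 51.2% and 39.4%. Unthinned cells with genes of both gates made up 66.0%, 59.6%, 41.9% and 30.9%.

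The same gates in other cells set the scale. In mesenchymal cells thinned in the same way, with unthinned medians of 9454, 8642.5, 7241 and 6675 UMIs, the naive gate took 0.148%, 0.720%, 0.478% and 0.699% and the effector gate 0.296%, 1.26%, 1.73% and 5.31%. CD4 T cells were naive-gated in 51.5%, 30.4%, 12.8% and 30.5% and effector-gated in 10.6%, 22.8%, 48.2% and 21%. Their lowest naive share and highest effector share were also at 3 dpi. Among NK cells at most 0.836% were naive-gated in any library, and 54.5% to 67.5% were effector-gated.

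**Figure D2:**
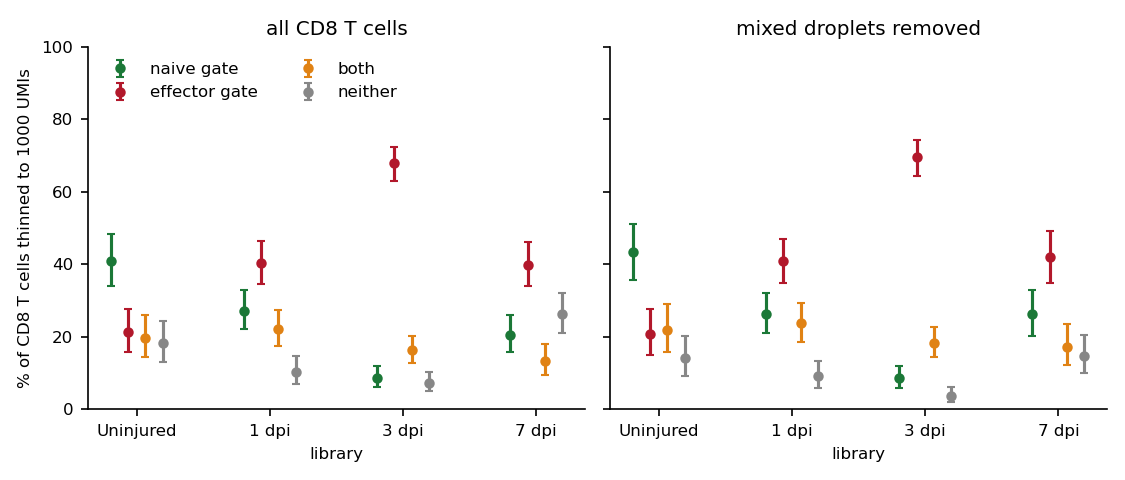
Percentage of CD8 T cells thinned to 1000 UMIs in the naive gate, the effector gate, both or neither, by library, for all CD8 T cells (left) and without mixed droplets (right). Points are single libraries and bars 95% Clopper-Pearson intervals; the effector gate peaked at 3 dpi at 67.8% and the naive gate was lowest there at 8.61%.

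Naive genes differed in their course over the libraries. *Ccr7*, *Dapl1* and *Lef1* are themselves genes of the naive gate, so their agreement with its share is built in. *Ccr7*, the chemokine receptor that guides naive cells to lymph nodes, was at 342 CPM in Uninjured muscle, 319 at 1 dpi, 84.4 at 3 dpi and 119 at 7 dpi. It was thus high in the first 2 libraries and low in the last 2, and was 3.78-fold lower at 3 dpi than at 1 dpi (ratio 0.264, 95% interval 0.219 to 0.318). *Dapl1*, a transcript abundant in naive CD8 T cells, was at 278, 165, 42.7 and 119 CPM. Its lowest value was again at 3 dpi, with a ratio of 0.259 (0.197 to 0.335) to 1 dpi, and at 7 dpi it was 2.79-fold (2.07 to 3.78) above 3 dpi. *Lef1*, a transcription factor of naive T cells that acts with *Tcf7*, was at 254, 245, 117 and 141 CPM. *Klf2*, the factor that sustains *S1pr1*, was at 2475, 1198, 928 and 1209 CPM. Its largest step came before 1 dpi, where the ratio to Uninjured muscle was 0.484 (0.457 to 0.513). *Tcf7* and *Il7r*, the latter the receptor subunit for the survival cytokine IL-7, did not share this order, being highest at 1 dpi (352 and 472 CPM) and lowest at 7 dpi (122 and 127). After thinning, a *Ccr7* UMI was present in 30.6%, 21.8%, 7.09% and 13.7% of CD8 T cells.

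Over all genes with at least 10 UMIs in a pair of libraries, the median log2 ratio was 0.23 for 1 dpi over Uninjured, 0.11 for 3 dpi over 1 dpi and -0.23 for 7 dpi over 3 dpi, and changes of lists are to be read against these shifts. At 1 dpi 16.4% of the 10667 such genes were at least 2-fold higher than in Uninjured muscle and 8.86% at least 2-fold lower. At 3 dpi against 1 dpi these shares were 11.8% and 3.01% of 11246 genes, and at 7 dpi against 3 dpi 6.69% and 15.2% of 11155. Among 10 naive and central memory genes, 5, among them *Ccr7*, *Lef1*, *Dapl1* and *Bach2*, were at least 2-fold lower at 3 dpi than at 1 dpi, with a list median of -0.98 on the log2 scale. At 1 dpi against Uninjured muscle 1 was lower (*Klf2*) and 1 higher (*Bach2*). At 7 dpi against 3 dpi *Dapl1* was higher and *Il7r* lower. The summed naive list was at 4388, 3634, 2142 and 2245 CPM, and at 5628, 3964, 2649 and 3362 without mixed droplets. In these sums a different mix of states and a different level within a state cannot be told apart.

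Most measured effector and memory regulators stood at least 2-fold above the Uninjured library at 1 dpi. Several were at least 2-fold lower at 7 dpi than at 3 dpi. *Ly6c2*, a surface protein of memory and effector CD8 T cells, was at 232, 978, 1005 and 287 CPM in the Uninjured, 1, 3 and 7 dpi libraries. The libraries at 1 and 3 dpi lay well above the other pair, with a ratio of 4.22 (3.71 to 4.81) for 1 dpi over Uninjured. *Eomes*, a T-box factor of memory cells, was at 13.5, 85.2, 97.5 and 43.8 CPM, 6.29-fold (3.73 to 11.3) higher at 1 dpi than in the Uninjured library. *Tbx21*, which encodes the T-box factor T-bet, was at 16.9, 37.2, 82.1 and 25.9 CPM. It differed from *Eomes* in a second step, 2.21-fold (1.62 to 3.04) from 1 to 3 dpi, after 2.20-fold (1.30 to 3.85) from Uninjured to 1 dpi. *Il2rb*, the receptor chain shared by IL-2 and IL-15, was at 67.7, 331, 270 and 82.5 CPM. Of 12 measured effector and memory regulators, 8 were at least 2-fold higher at 1 dpi than in the Uninjured library, with a list median of 1.07. At 3 dpi 3 of 13 (*Tbx21*, *Cd44*, *S1pr5*) were at least 2-fold higher than at 1 dpi, and at 7 dpi 6 of 13 were at least 2-fold lower than at 3 dpi (*Tbx21*, *Eomes*, *Id2*, *Prdm1*, *Il2rb*, *Ly6c2*; list median -0.82). Genes of the T cell receptor and its proximal signalling also rose and fell, with sums of 2784, 4460, 3712 and 2789 CPM. Without mixed droplets these sums were 3754, 5063, 4964 and 4455 CPM. The part of mixed droplets in the course of the regulators was not tested.

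Cytotoxic granule genes gave a mixed picture. *Gzmb* (granzyme B) was at 55.0, 233, 153 and 74.6 CPM, with its peak at 1 dpi, 4.24-fold (3.25 to 5.61) above Uninjured muscle. *Gzmk*, a granzyme of memory cells, was at 13.5, 47.9, 62.7 and 34.8 CPM, 3.54-fold (2.05 to 6.50) higher at 1 dpi. *Prf1*, the pore-forming perforin, was at 26.2, 67.5, 59.8 and 24.9 CPM. *Gzma* did not share their order. It was at 237, 172, 158 and 499 CPM, and thus lowest at 3 dpi and highest at 7 dpi, 3.16-fold (2.73 to 3.68) above 3 dpi. Of the 9 genes, 6 were at least 2-fold higher at 1 dpi than in the Uninjured library (*Gzmb*, *Gzmk*, *Gzmm*, *Prf1*, *Cst7*, *Fasl*; list median 1.36). At 7 dpi 5 were at least 2-fold lower than at 3 dpi and 1, *Gzma*, was higher (list median -1.04). The sum of the list, in which *Nkg7* and *Gzma* weigh most, was at 1010, 1594, 1492 and 1383 CPM. Without mixed droplets it was at 1270, 1850, 2053 and 2208, so that the order of the last 3 libraries turned.

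Among secreted factors, *Ccl5*, a chemokine stored by memory CD8 T cells, was at 1984, 2887, 4780 and 3246 CPM. It was highest at 3 dpi, 2.41-fold (2.30 to 2.52) above Uninjured muscle, and after thinning it was found in 22.8%, 50%, 77.7% and 38.0% of CD8 T cells, against 0.2% to 3.7% of mesenchymal cells. *Ifng*, which encodes interferon gamma, was at 142, 247, 400 and 151 CPM. Its peak was at 3 dpi as well, 1.62-fold (1.43 to 1.84) above 1 dpi, with a ratio of 0.378 (0.315 to 0.451) for 7 dpi over 3 dpi. *Xcl1*, a chemokine for cross-presenting dendritic cells, had its highest value before injury, at 89.7, 44.2, 21.1 and 27.8 CPM. This peak rests in part on a single Uninjured cell, which held 33.3% of the 84 *Xcl1* UMIs of unthinned effector-gated cells over all libraries. Of 8 measured secreted factors 2, *Ifng* and *Tnf*, were at least 2-fold lower at 7 dpi than at 3 dpi.

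**Figure D3:**
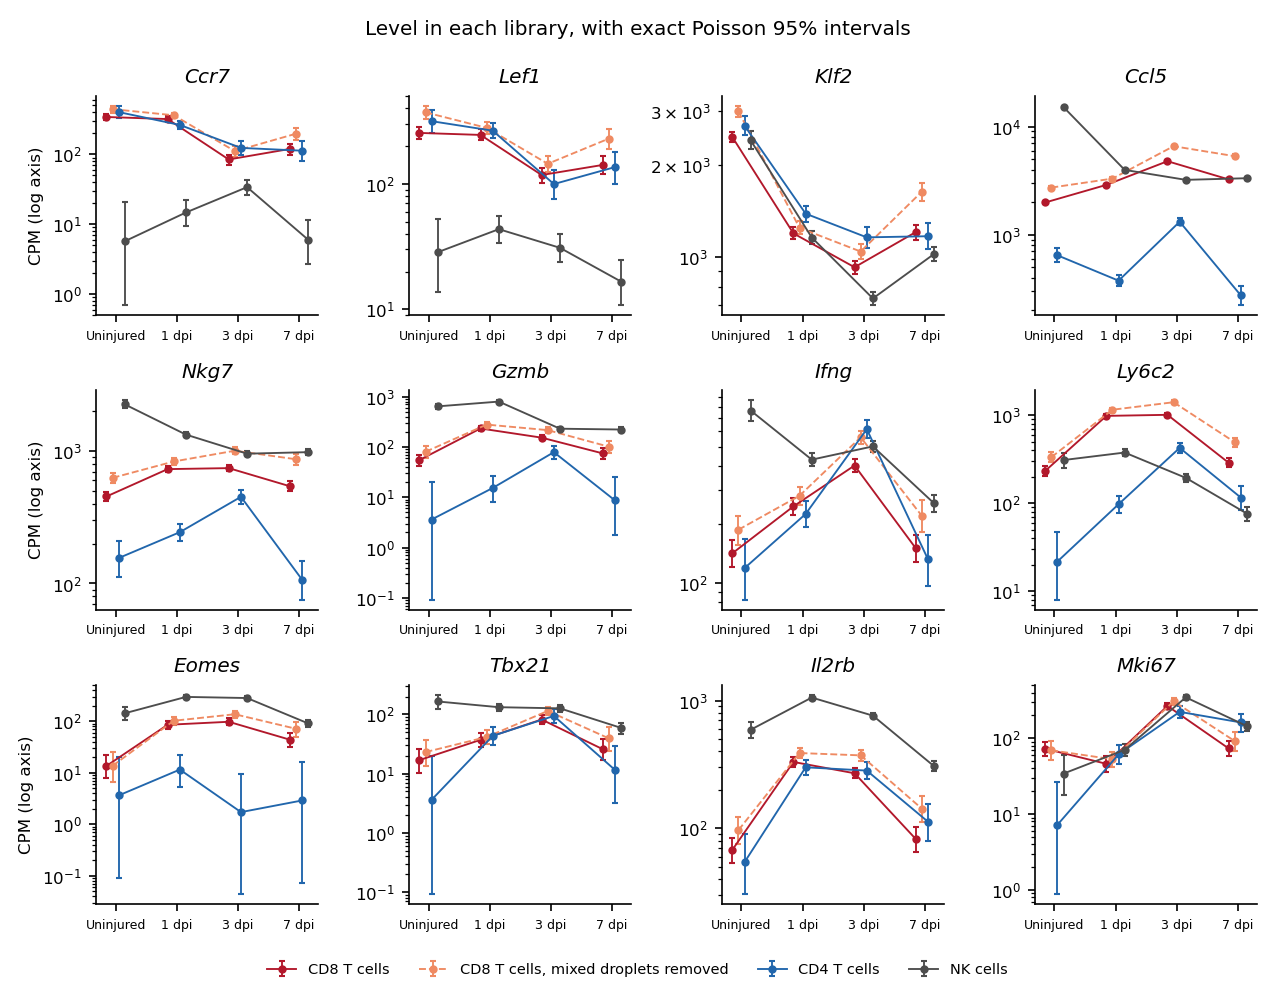
Level of 12 genes (CPM, log axis) in each library for CD8 T cells, for CD8 T cells without mixed droplets, for CD4 T cells and for NK cells. Points are single libraries, bars are exact Poisson 95% intervals and values of 0 are not drawn; *Ccr7* in CD8 T cells was lowest at 3 dpi at 84.4 CPM, where *Ccl5* and *Ifng* were highest at 4780 and 400.

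Chemokine and migration receptors guide T cells into tissue. Of 10 measured chemokine and migration receptors 7 were at least 2-fold higher at 1 dpi, among them *Cxcr3*, *Cxcr4*, *Ccr2*, *Ccr10*, *Itga4* and *Itgal*, and at 7 dpi 5 of 9 were at least 2-fold lower than at 3 dpi. *Ctla4*, an inhibitory receptor that follows activation, was at 9.31, 79.5, 34.8 and 25.9 CPM, and *Icos*, a costimulatory receptor, at 22.9, 105, 104 and 32.8. Of 7 measured activation genes 5 were at least 2-fold higher at 1 dpi (*Irf4*, *Il2ra*, *Tnfrsf9*, *Nr4a3*, *Icos*; list median 2.02). *Itgae*, the integrin chain that holds resident T cells to epithelium, was at 27.9, 29.0, 10.8 and 19.9 CPM, with the first 2 libraries about equal and the lowest value at 3 dpi. Of 5 measured tissue residency genes 2, *Itga1* and *Cxcr6*, were at least 2-fold higher at 1 dpi (list median 0.52). Interferon-stimulated genes were at least 2-fold higher at 1 dpi in 7 of 12 cases and at least 2-fold lower at 7 dpi than at 3 dpi in 6 of 12. *Ifit1*, by contrast, stood at 152, 150 and 140 CPM in the first 3 libraries and at 69.6 at 7 dpi.

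Proliferation genes were highest at 3 dpi. *Mki67*, a nuclear protein of dividing cells, was at 72.8, 46.1, 267 and 73.6 CPM. The library at 3 dpi stood apart from the other 3, 5.79-fold (4.52 to 7.52) above 1 dpi, and 11 of 12 cell cycle genes were at least 2-fold higher there than at 1 dpi (list median 2.05). From Uninjured muscle to 1 dpi 6 of the 12 had been at least 2-fold lower and 1 higher, but this step was not stable. The log2 ratio of the summed list was -0.89, against -0.41 without mixed droplets and 0.96 without any cell that held a UMI of another cell type. In thinned cells 4.15% (1.81 to 8.00), 3.21% (1.48 to 6.01), 13.9% (10.7 to 17.7) and 11.0% (7.51 to 15.5) of CD8 T cells held at least 2 UMIs of these 12 genes. Free RNA can add such UMIs, and its part in these shares was not tested. Without mixed droplets the shares were 3.05%, 3.44%, 13.6% and 9.42%. NK cells gave 3.75%, 2.85%, 21.4% and 14.0%, and CD4 T cells 1.52%, 3.80%, 11.6% and 8.57%.

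The study names *Itga4*, *Mif*, *Lgals9* and *Ifng* among signals of these cells, and as it chose them on these samples their values are not independent evidence. *Itga4*, the alpha 4 integrin chain, was at 119, 304, 268 and 113 CPM, 2.57-fold (2.12 to 3.12) higher at 1 dpi than in the Uninjured library and with a ratio of 0.422 for 7 dpi over 3 dpi. *Lgals9*, which encodes galectin-9, was at 55.9, 97.8, 79.8 and 46.7 CPM. *Mif*, a cytokine that most cells make, was at 289, 302, 325 and 580 CPM, 1.78-fold (1.59 to 2.01) higher at 7 dpi than at 3 dpi. Without mixed droplets the last ratio was 1.34.

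The genes with the largest steps between successive libraries, taken by a fixed rule, included many that moved less once mixed droplets were left out. The largest ratios of 1 dpi over Uninjured muscle included those of *Ifit1bl1* (8.62), *Ctla4* (8.54), *Klrc2* (7.88) and *Uhmk1* (6.98). In the other direction stood *Nr1d1* and *Dbp*, output genes of the circadian clock, with ratios of 0.0717 and 0.167 that became 0.416 and 0.872 without mixed droplets, together with the matrix genes *Col14a1* (0.160), *Mfap2* (0.168) and *Sparc* (0.177). Without mixed droplets *Mfap2* stood at 0.370 (0.0309 to 3.23) and *Sparc*, itself on the mesenchymal list, at 0.445 (0.341 to 0.580). *Col14a1* turned to 1.39 (0.227 to 14.6). The interval of *Nr1d1* was then 0.0610 to 2.46 and that of *Dbp* 0.309 to 2.65. At 3 dpi the cell division genes *Cdca3* (13.4, and 10.4 without mixed droplets) and *Spc24* (12.4 and 9.85) were among the 5 largest, beside *Cxcl5* (13.5 and 2.57), *Lox* (9.56 and 31.4) and *Pcdh19* (9.55 and 3.37). The ratios without mixed droplets were loosely fixed for *Lox* (5.20 to 1285) and *Pcdh19* (0.270 to 177). The lowest ratios at 3 dpi were those of *Dapl1*, *Ccr7*, *Als2cl* (0.289), *Tdrp* (0.327) and *Inpp4b* (0.370). At 7 dpi the 5 largest, *Fmod* (81.7), *Tnn* (39.1), *C1qtnf3* (39.0), *Mdk* (22.2) and *Mest* (13.2), were mostly genes of connective tissue, in the library where mixed droplets were most frequent. Without these droplets the ratios were 19.9 for *Fmod*, 9.48 for *C1qtnf3*, 4.42 for *Mdk* and 1.74 (0.714 to 4.12) for *Mest*, and *Tnn* was left with 0 UMIs at 7 dpi. The lowest were *Prg4* (0.0318), *Cxcl5* (0.0586), *Mid1* (0.114), *Ifi207* (0.121) and *Gsn* (0.140), and without mixed droplets *Prg4* stood at 0.116, *Mid1* at 0.109, *Ifi207* at 0.0922 and *Gsn* at 0.310, with 0 UMIs of *Cxcl5* left at 7 dpi.

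CD8 T cells were next compared with CD4 T cells of the same libraries, so that both classes share each time point. Their states also differed, as the effector-gated share of thinned cells was higher in CD8 T cells in each library. A difference of lineage and a difference of state can thus not be told apart here. UMIs of all genes except those of the rules were summed for each class and library and tested by edgeR with the library as a block (n = 4 libraries, 8 sums). Of 10107 genes tested 362 (3.58%) passed an adjusted p of 0.05, 195 (1.93%) higher and 167 (1.65%) lower in CD8 T cells, with a median log2 fold change of 0.03 over all genes. The count was 183 without the 1 dpi library and 172 without the 3 dpi library. Of the cytotoxic genes 8 of 9 were higher in CD8 T cells, with a list median of 2.41. *Gzma* was at 237, 172, 158 and 499 CPM in CD8 T cells and at 18.1, 2.55, 12.0 and 34.7 in CD4 T cells. Every CD8 value lay above every CD4 value, with a log2 fold change of 4.22 ± 0.25 (SE; adjusted p = 3.75e-06). *Gzmk* was at 0, 3.83, 13.7 and 2.89 CPM in CD4 T cells, below CD8 T cells in each library and higher in CD8 T cells by 2.96 ± 0.35 on the log2 scale. *Prf1* (2.97 ± 0.36), *Gzmm* (3.60 ± 0.42), *Gzmb* (2.41 ± 0.40) and *Nkg7* (1.55 ± 0.19) were higher too. *Ccl5* was at 644, 376, 1317 and 274 CPM in CD4 T cells and higher in CD8 T cells by 2.54 ± 0.24, as were *Ccl4* and *Ccl3*, while *Tnf* was lower in all 4 libraries (adjusted p = 0.00533).

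Killer lectin receptors, better known from NK cells, were higher in CD8 than in CD4 T cells for all 6 measured (list median 2.64). *Klrd1*, which encodes CD94, was at 144, 129, 129 and 125 CPM in CD8 and at 25.3, 20.4, 27.4 and 26.0 in CD4 T cells. Its level was nearly constant over the time course in both classes, with a log2 fold change of 2.49 ± 0.18. *Klre1* gave 199 UMIs in 106 CD8 T cells and 2 UMIs in 1 CD4 T cell. Of these, 5 lie close together on chromosome 6 (GRCm38, GENCODE M21), from *Klre1* at chr6:129577905-129585827 through *Klrd1* at chr6:129591782-129598775 and *Klrk1* at chr6:129610323-129623864 to *Klrc1* at chr6:129666015-129678973, and reads of near-identical members may have been split between them. Of 12 effector and memory regulators 4 were higher in CD8 than in CD4 T cells and 2 were lower, *Bhlhe40* (-1.02 ± 0.15) and *Id2* (-0.43 ± 0.10), the latter not without mixed droplets (adjusted p = 0.114). *Eomes* was at 3.62, 11.5, 1.72 and 2.89 CPM in CD4 T cells, below every CD8 value, with a log2 fold change of 3.62 ± 0.36, and *Runx3*, which silences *Cd4* in the CD8 lineage, was higher by 0.67 ± 0.15. *Ifng* and *Tbx21* were not called, and the CD4 T cells held 614 CPM of *Ifng* and 94.3 of *Tbx21* at 3 dpi, above the 400 and 82.1 of CD8 T cells.

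Genes of the helper lineage went the other way. *Cd40lg*, with which helper cells license B cells and dendritic cells, was at 1.69, 1.89, 1.14 and 5.97 CPM in CD8 and at 36.2, 62.6, 72.0 and 57.8 in CD4 T cells, a log2 fold change of -4.48 ± 0.36. *Zbtb7b*, the ThPOK factor that commits cells to the CD4 lineage, was at 1.69, 13.9, 9.69 and 6.96 against 36.2, 49.8, 60.0 and 43.3 CPM (-2.41 ± 0.30). *Tnfrsf4*, the OX40 receptor, was lower in CD8 T cells by a log2 fold change of -4.43 ± 0.28, *Icos* by -1.94 ± 0.19 and *Ctla4* by -1.91 ± 0.23. Of 10 lineage regulators 6 were lower in CD8 T cells and 1 higher, and of 11 migration receptors 4 were lower (*Ccr2*, *Ccr4*, *Ccr6*, *Itgb7*) and 1 higher. Interferon-stimulated genes were lower in CD8 T cells for 4 of 12 (*Ifit1*, *Isg15*, *Rsad2*, *Ifi27l2a*; list median -0.50). Of 15 genes of the T cell receptor and its proximal signalling 4 were lower (*Cd28*, *Trbc1*, *Trac*, *Cd5*) and none higher, with a list median of -0.47. Immediate early and heat shock genes were lower for 5 of 13 (*Fosb*, *Jund*, *Junb*, *Dusp1*, *Hspa1b*) and none was higher, with a list median of -0.37. Of the naive genes *Dapl1* was higher in CD8 T cells (2.03 ± 0.29) and *S1pr1* was lower (-0.87 ± 0.16). *Mif* was the 1 of the 4 study ligands that passed, higher by 0.47 ± 0.11. The matrix genes *Col3a1*, *Sparc* and *Col2a1* also passed as higher in CD8 T cells, and none of these 3 did so without mixed droplets. All 3 are on the lists that define mixed droplets, so this loss was built into the removal and decides nothing. Without these droplets, 2 of 4 monocyte and macrophage genes and both dendritic cell genes tested, *Cd209a* (2.85) and *H2-Aa* (1.29), passed as higher in CD8 T cells.

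Several of the largest differences were in genes with 0 or 1 UMI in CD4 T cells. *Bend4*, at chr5:67392147-67428310, gave 22, 48, 40 and 21 UMIs in CD8 T cells of the 4 libraries and 0 in CD4 T cells. The 131 UMIs came from 102 cells, at least 15.7-fold above the CPM of a floor of 3 UMIs over all CD4 T cells. *Adgrg5*, an adhesion G protein-coupled receptor, gave 122 UMIs in 110 CD8 T cells and 1 in CD4 T cells, a ratio of 43.9 (7.73 to 1748). *Gm44175* gave 6, 20, 19 and 1 UMIs in 42 CD8 T cells and 0 in CD4 T cells (at least 5.52-fold) and 0 in NK cells (at least 15.0-fold). This long non-coding RNA lies at chr6:71354351-71360829 on the minus strand, between *Cd8b1* (chr6:71322788-71337494) and *Cd8a* (chr6:71373427-71379173), both on the plus strand. *Krtdap*, *Mgl2* and *Clec10a* also ranked among the 10 largest, but rested on few cells. Their 73, 66 and 43 UMIs came from 20, 12 and 18 CD8 T cells. *Mgl2* and *Clec10a* mark a dendritic cell subset. The 6 dendritic cell genes summed to 369, 226, 177 and 71.6 CPM in CD8 T cells, led by *H2-Aa* with 405, 318, 271 and 71 UMIs in 11, 30, 56 and 18 cells. *Cd209a* gave 25, 17, 16 and 1 UMIs, *Xcr1* was at 0 in Uninjured and 7 dpi muscle, *Siglech* likewise, and *Clec9a* and *Flt3* were at 0 at 7 dpi. Their part in the result was not tested.

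Against NK cells, the other killer lymphocyte of the tissue, 840 of 11022 genes (7.62%) passed the same test, 467 (4.24%) higher and 373 (3.38%) lower in CD8 T cells, with a median log2 fold change of 0.02. Without the 1 dpi library 401 passed. Naive and central memory genes were higher in CD8 T cells for 7 of 10 (list median 2.26), and 12 of 15 genes of the T cell receptor and its proximal signalling were higher (list median 0.91). *Dapl1* gave 785 UMIs in CD8 T cells and 1 in NK cells (log2 fold change 8.83 ± 0.36). *Themis*, a signalling protein of T cell selection, gave 74, 253, 221 and 59 UMIs in CD8 T cells of the 4 libraries and 1 in all NK cells. *Cd6*, a T cell co-receptor, was at 57.6, 164, 178 and 118 CPM in CD8 T cells and at most 2.66 in NK cells (7.06 ± 0.34). *Ccr7* was higher by 3.48 ± 0.48, *Il7r* by 3.27 ± 0.32, *Lef1* by 2.69 ± 0.20 and *Tcf7* by 1.82 ± 0.21. Of 5 tissue residency genes 3 were higher in CD8 T cells, *Itgae* (2.96 ± 0.41), *Cxcr6* (2.82 ± 0.34) and *Cd69*, and 1 was lower, *Rgs1* (-1.46 ± 0.24). Against CD4 T cells *Cxcr6* was the 1 of these 5 that passed, and it was lower in CD8 T cells (-0.68 ± 0.15), while without mixed droplets *Itgae* passed in its place, as higher (1.77). Markers of other cells also passed against NK cells. *C1qb* and *Apoe* of 5 monocyte and macrophage genes were higher in CD8 T cells, and *Matn1* of 4 cartilage genes and *Acta1* of 3 skeletal muscle genes were lower. The monocyte and macrophage list summed to 197, 180, 293 and 299 CPM in CD8 T cells and to 17.1, 209, 219 and 322 in NK cells, led by *Apoe* or *Lyz2*, and *C1qb* was at 0 in NK cells of Uninjured muscle. Mixed droplets made up 41.8% of NK cells at 7 dpi, against 27.9% of CD8 T cells. Without them *Apoe*, 1 of 2 dendritic cell genes (*Cd209a*) and 2 of 4 B cell genes passed as higher in CD8 T cells. Their part in the comparison was not tested.

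The cytotoxic genes divided. Of the 9, 6 were lower in CD8 T cells than in NK cells and 2 higher (list median -0.92). *Gzma* was at 8212, 2538, 2620 and 1998 CPM in NK cells, above every CD8 value (-3.62 ± 0.38), and *Prf1* at 673, 552, 340 and 213 CPM, also above all of them (-3.09 ± 0.25). *Gzmk* was at 11.4, 1.28, 2.99 and 0.666 CPM in NK cells. It was higher in CD8 T cells in each library (4.31 ± 0.45), as was *Gzmm* over the 4 libraries (2.34 ± 0.34). *Ccl5* was at 15117 CPM in NK cells of Uninjured muscle, 3972 at 1 dpi, 3214 at 3 dpi and 3328 at 7 dpi. In CD8 T cells it was thus lower than in NK cells in Uninjured muscle and at 1 dpi and higher at 3 dpi. Of 10 secreted factors 5 were lower in CD8 T cells, among them *Xcl1* (-3.48 ± 0.23), *Ccl3* (-3.49 ± 0.36) and *Ifng* (-0.88 ± 0.24, adjusted p = 0.0479), and *Ltb* was higher (1.75 ± 0.19). Of 13 effector and memory regulators 8 were lower, *Eomes* by -1.63 ± 0.22 and *Tbx21* by -1.39 ± 0.27, and *Ly6c2* was higher (1.53 ± 0.32). Of 10 killer lectin receptors 9 were lower. *Klra4* and *Klra8*, the largest differences, gave 2 and 6 UMIs in CD8 T cells against 1648 and 1370 in NK cells. Among the NK cell genes in CD8 T cells *Klre1* was the most abundant, and *Klra4* was at 0 in the Uninjured, 1 and 7 dpi libraries.

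**Figure D4:**
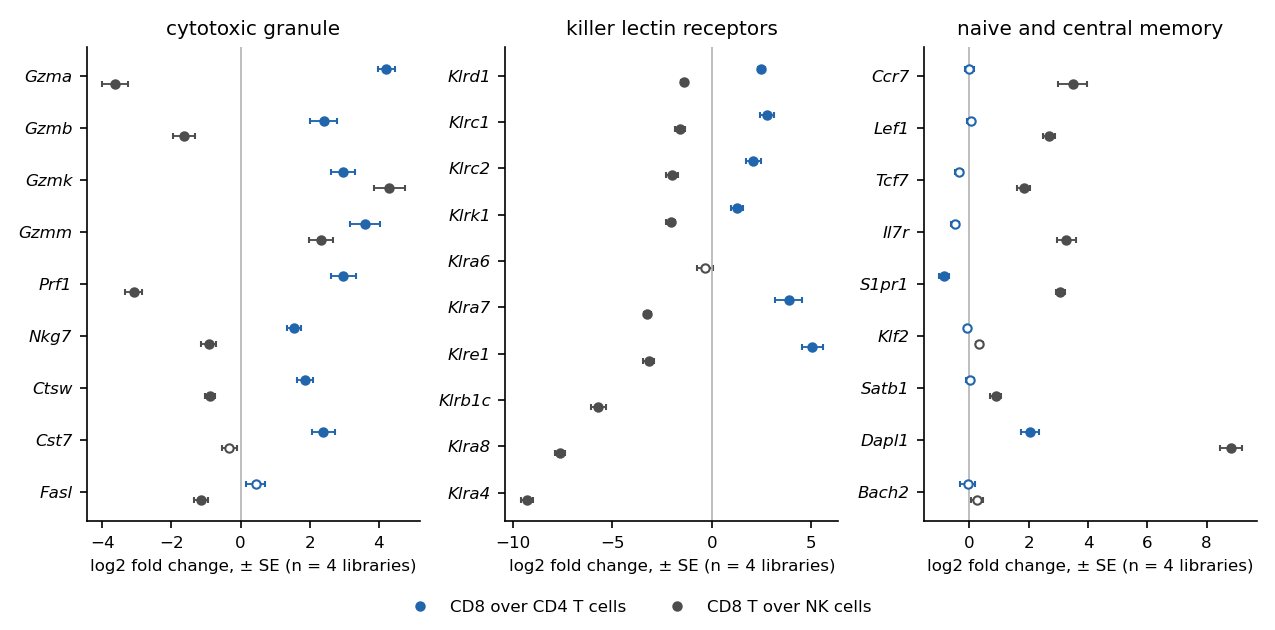
Log2 fold change (± SE, n = 4 libraries) of CD8 T cells over CD4 T cells and over NK cells for the cytotoxic granule, killer lectin receptor and naive and central memory lists, without genes not reported here; filled points passed an adjusted p of 0.05. Cytotoxic and lectin genes lie mostly to the right of 0 against CD4 T cells and to the left against NK cells, with *Gzmk* and *Gzmm* to the right in both.

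Within CD8 T cells, the naive-gated cells (44, 50, 24 and 55 in the 4 libraries, without thinning) were compared with the effector-gated ones (22, 63, 209 and 106), leaving out the 9 gate genes. Their median depths were 3565.5, 3841, 2682 and 2058 UMIs against 3192.5, 3477, 2309 and 2341.5. The 128, 167, 171 and 83 cells with genes of both gates, which were deeper (medians of 4877, 5108, 3364 and 2919 UMIs), were not used. Of 6627 genes tested 203 (3.06%) passed, 114 (1.72%) higher and 89 (1.34%) lower in the naive gate, with a median log2 fold change of 0.02. The count was 56 without the Uninjured library, 26 without 1 dpi, 124 without 7 dpi and 504 without mixed droplets. The naive-gated cells had more of 5 of the 6 remaining naive and central memory genes (list median 1.78). *Satb1*, a chromatin organiser of early T cells, was at 476, 781, 523 and 467 CPM in naive-gated and at 67.1, 56.7, 94.7 and 81.0 in effector-gated cells. The groups did not overlap, with a log2 fold change of 3.11 ± 0.30 (adjusted p = 0.000274). *Bach2*, a repressor of effector genes, was higher by 3.00 ± 0.37, *Tcf7* by 1.80 ± 0.33, *Il7r* by 1.77 ± 0.31 and *Klf2* by 1.16 ± 0.17. *Tdrp* (4.42 ± 0.58), *Nsg2* (3.47 ± 0.61) and *Als2cl* were the 3 largest differences among genes higher in the naive gate, and *Il6ra*, the IL-6 receptor chain, was higher by 2.82 ± 0.41. Of 2 B cell genes tested *Ighm*, the heavy chain of IgM, was higher in naive-gated cells in all 4 libraries (2.13 ± 0.31), as was *Pecam1* of the endothelial list (2.71 ± 0.48). Without mixed droplets both passed again, together with the dendritic cell gene *H2-Aa* (1.96). The B cell list summed to 123, 303, 165 and 211 CPM over all CD8 T cells, with *Ighm* the most abundant, and *Ms4a1* and *Igkc* were among the genes at 0 in Uninjured muscle. The part of other cells' RNA in the comparison of gates was not tested.

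Some regulator, receptor and cytokine genes that the gate did not use were higher in effector-gated cells. *Tbx21* gave 9, 22, 82 and 17 UMIs in effector-gated cells of the 4 libraries and 0 in all naive-gated cells, at least 18.5-fold above the CPM of a floor of 3 UMIs. *Ifng* gave 49, 196, 484 and 117 UMIs against 3, 0, 0 and 1. It was found in 233 of 400 effector-gated cells and in 2 of 173 naive-gated cells (log2 fold change -6.08 ± 0.56). *Klrk1*, which encodes the activating receptor NKG2D, gave 23, 135, 111 and 56 UMIs against 0, 2, 0 and 0, a ratio of 69.5 (19.1 to 576). *Xcl1* gave 84 UMIs in 33 effector-gated cells, 33.3% of them from a single cell, and 0 in naive-gated cells (at least 12.0-fold). That cell held all 28 UMIs of the effector-gated cells of Uninjured muscle, and without this library *Xcl1* did not pass. It was not alone in this, as 56 of the 203 gate calls were kept without the Uninjured library and 24 without 1 dpi. Among named and listed genes 28 were weaker and 22 the same without the Uninjured library, and 32 and 14 without 1 dpi. Of the 12 effector and memory regulators 7 were lower in the naive gate (list median -2.10), of 6 killer lectin receptors 5, of 8 migration receptors 5, of 6 secreted factors 3 and of 11 cell cycle genes 4 (*Cdca8*, *Stmn1*, *Mki67*, *Pclaf*; list median -2.18). *Ly6c2* was lower by a log2 fold change of -3.32 ± 0.42, *Eomes* by -3.55 ± 0.59 and *Cxcr3* by -3.15 ± 0.51.

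The promoters of the named genes were read from RefSeq (GRCm38.p6, 250 bases before to 50 after the start site), which held 223 of the 301 named genes. They were searched on both strands for GGTGTGA, the core of the T-box motif, TGTGGTT, that of the Runt motif, and CTTTGAA, that of the TCF/LEF motif. These were present in 3.98%, 5.27% and 5.14% of all 32851 promoters. Among the 10 genes most lowered in the naive gate, 9 had a promoter, of which 2 held the T-box letters and 3 the Runt letters, and 1 the TCF/LEF letters. Of the 10 most raised genes 8 had a promoter, and none of these genes held any of the 3. For the genes higher in CD8 than in CD4 T cells the T-box, Runt and TCF/LEF letters were in 0, 2 and 1 of 8 genes with a promoter, and for those lower in 0, 0 and 1 of 8. For the genes higher in CD8 T cells than in NK cells they were in 1, 0 and 1 of 6, and for those lower in 0, 0 and 1 of 7. These counts are of genes, with a match at any start site of a gene counted. The shares over all promoters are of single promoters, so counts and shares are not on the same basis. The 4 promoters below are shown for *Xcl1* and *Klrk1*, effector-gated genes with a match, for *Nkg7*, a gate gene with a T-box match, and for *Bach2*, a naive-gated gene with none, and were chosen after their matches were seen. Capitals mark the matched letters, and no matches overlap in these 4. *Xcl1* has the Runt letters on the opposite strand and the T-box letters on the strand shown (chr1:164935473-164935772, minus strand). *Klrk1* has the Runt letters (chr6:129623815-129624114, minus strand) and *Nkg7* the T-box letters (chr7:43436888-43437187, plus strand), while *Bach2* (chr4:32417185-32417484, plus strand) has no match in this window. The *Bach2* window belongs to a start site inside the gene (chr4:32238804-32586108) and not to its annotated start.
Xcl1: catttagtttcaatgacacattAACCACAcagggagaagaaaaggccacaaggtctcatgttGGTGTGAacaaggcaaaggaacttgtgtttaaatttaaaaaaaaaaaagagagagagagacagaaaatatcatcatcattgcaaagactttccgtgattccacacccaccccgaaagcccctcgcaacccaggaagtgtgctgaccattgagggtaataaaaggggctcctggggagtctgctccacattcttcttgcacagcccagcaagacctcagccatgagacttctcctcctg
Klrk1: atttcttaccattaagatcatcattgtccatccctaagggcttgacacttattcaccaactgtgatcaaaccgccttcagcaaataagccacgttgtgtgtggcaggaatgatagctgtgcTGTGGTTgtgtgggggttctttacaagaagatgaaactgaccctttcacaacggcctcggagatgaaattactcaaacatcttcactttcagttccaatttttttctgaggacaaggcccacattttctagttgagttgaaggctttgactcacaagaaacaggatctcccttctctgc
Nkg7: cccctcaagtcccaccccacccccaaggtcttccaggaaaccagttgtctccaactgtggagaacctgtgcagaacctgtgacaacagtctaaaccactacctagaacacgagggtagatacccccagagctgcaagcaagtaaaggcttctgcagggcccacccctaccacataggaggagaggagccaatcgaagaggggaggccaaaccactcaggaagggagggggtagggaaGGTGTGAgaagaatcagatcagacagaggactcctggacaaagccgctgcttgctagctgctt
Bach2: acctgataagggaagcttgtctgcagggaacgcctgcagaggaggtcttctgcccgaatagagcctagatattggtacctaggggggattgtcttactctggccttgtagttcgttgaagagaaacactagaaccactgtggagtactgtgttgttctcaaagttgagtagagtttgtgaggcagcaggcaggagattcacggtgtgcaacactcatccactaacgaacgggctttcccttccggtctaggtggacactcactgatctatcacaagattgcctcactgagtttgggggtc

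**Figure D5:**
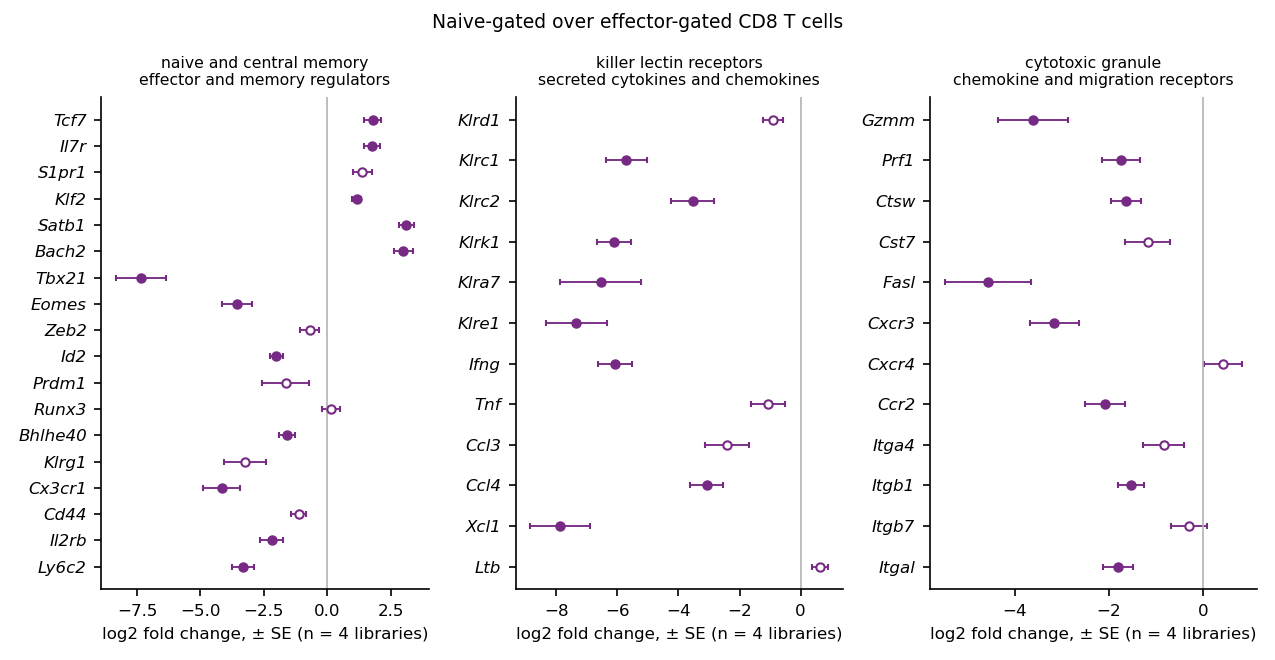
Log2 fold change (± SE, n = 4 libraries) of naive-gated over effector-gated CD8 T cells for 6 gene lists without the gate genes and genes not reported here; filled points passed an adjusted p of 0.05. *Satb1*, *Bach2*, *Tcf7*, *Il7r* and *Klf2* lie to the right of 0, and the regulators, lectin receptors and secreted factors that passed lie to the left. *Tbx21*, *Xcl1* and *Klre1*, at 0 UMIs in naive-gated cells, are drawn at their fitted values.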

How the data were processed

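Single-cell RNA libraries (10x Genomics) were made from collagenase-digested tibial muscle of *Nse-Bmp4* mice, 1 library each for Uninjured muscle and 1, 3 and 7 dpi, each from 3 pooled muscles. The deposited matrices hold whole-number UMI counts per gene and cell, which the authors made with Cell Ranger 5.0.0 and STAR on mm10. Per the labels and methods, reads were down-sampled where required, but the sources used here do not say whether this preceded the deposited counts. The authors' later filters, doublet removal and Seurat 3.1.1 clusters were not used, so the cell classes here are rebuilt from counts. The libraries held 12031, 11722, 15160 and 23752 cells and 112317902, 91146335, 116346301 and 129007669 UMIs.

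Members, gene lists and comparisons were chosen with earlier results of these data known. Levels are CPM of a class's summed UMIs with exact Poisson 95% intervals, ratios have exact conditional binomial intervals, and shares have Clopper-Pearson intervals. Between libraries a gene was counted as higher or lower past 2-fold with at least 10 UMIs in the pair. For class tests, UMIs were summed per library and class, genes with at least 40 UMIs over the 8 sums were kept, and edgeR 4.0.16 (TMM, quasi-likelihood, library as a block, R 4.3.3) was used with two-sided p-values adjusted by Benjamini-Hochberg over all genes tested. SE is the log2 fold change divided by the square root of F. With 3 pooled muscles in each library and the library as a block, p-values measure how the class difference varies between these 4 libraries, which also differ in time. In the text, a gene at 0 UMIs in a class is given as its fold above a floor of 3 UMIs, with the lower 95% limit of the ratio. Plots and list medians keep the fitted log2 fold changes of such genes. The test script was first tested on simulated data.

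Named genes were all list genes, the rule and marker genes, the genes the study names, the 10 largest called changes in each direction of each test with the same direction in every library, and the 5 largest ratios in each direction between successive libraries with at least 50 UMIs in the higher and 5 in the lower library and at most 20% of UMIs from 1 cell. Alternatives were DESeq2 1.42.0, no filter, no block, leaving out each library, Scrublet (scanpy 1.11.5, 7.5% of cells removed), at least 2 CD8 UMIs, other thinning depths and other denominators. Removing mixed droplets, leaving mesenchymal cells out of the total and leaving out *Gm42418* from the total were chosen after seeing the data. Positions are from GENCODE M21 and promoters from RefSeq. Some genes of the lists are counted in the list totals but are not reported here by name or drawn in the plots.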

Additional observations from a re-analysis of the deposited data

How the results depend on the processing

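All fold changes of lists below are log2 ratios of summed CPM. Requiring at least 2 CD8 UMIs put the CD8 share at 2.17%, 1.99% and 0.717% at 1, 3 and 7 dpi, and thinning before the rule put it at 0.910%, 1.18%, 1.58% and 0.634%. Removing mixed droplets, a choice made after seeing the data, gave 1.40% in Uninjured muscle, 2.57% at 3 dpi and 0.843% at 7 dpi. Leaving mesenchymal cells out of the total, also chosen after seeing the data, gave 5.22%, 3.74%, 4.53% and 1.503%. The 7 dpi library was lowest in these settings, while with at least 2 CD8 UMIs the 1 dpi share lay above that of 3 dpi. Without thinning the naive gate took 22.7%, 17.9% and 5.88% in the first 3 libraries and the effector gate 11.3%, 22.5% and 51.2%. Thinned to 500 UMIs, the naive gate took 29.4% in Uninjured muscle and 15.6% at 7 dpi. Thinned to 2000, it took 21.5% at 1 dpi and the effector gate took 14.3%, 33.7% and 57.6% in the first 3 libraries.

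The naive list ratio of 1 dpi over Uninjured was -0.27, and -0.37 as a mean of CPM per cell, -0.39 in thinned cells, -0.36 without Scrublet doublets, -0.51 without mixed droplets and -0.20 without *Gm42418* in the total. For 3 dpi over 1 dpi it was -0.76, and -0.61 per cell, -0.62 thinned, -0.61 with at least 2 CD8 UMIs and -0.58 without mixed droplets. For 7 dpi over 3 dpi it was 0.07, and 0.19 thinned, 0.17 with at least 2 CD8 UMIs, 0.47 without any cell holding a UMI of another cell type and 0.34 without mixed droplets. The cytotoxic list ratio of 1 dpi over Uninjured was 0.66, and 0.39, 0.44, 0.48, 0.23 and 0.54 per cell, thinned, without Scrublet doublets, without cells holding other-type UMIs and without mixed droplets. Its sign was not stable in the later steps. For 3 dpi over 1 dpi it was -0.10, and 0.38 per cell, 0.35 thinned, 0.11 without Scrublet doublets, 0.091 with at least 2 CD8 UMIs, 0.76 without cells holding other-type UMIs and 0.15 without mixed droplets. For 7 dpi over 3 dpi it was -0.11, and 0.032 per cell, 0.057 thinned, 0.10 without mixed droplets and -0.40 without cells holding other-type UMIs. The cause was not tested.

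Some other lists also changed sign. For 3 dpi over 1 dpi, MHC class I (-0.16) reached 0.014 without mixed droplets, 0.015 with at least 2 CD8 UMIs, 0.027 per cell and 0.16 without cells holding other-type UMIs. Migration receptors (-0.17) reached 0.029, 0.010 and 0.28 in the last 3 of these settings, and cytokine receptors (-0.093) 0.036 with at least 2 CD8 UMIs. T cell receptor genes (-0.26) reached 0.051 per cell and 0.072 thinned, inhibitory receptors (-0.45) 0.084 per cell and lineage regulators (-0.14) 0.087 thinned. Without cells holding other-type UMIs, residency genes (-0.29) reached 0.20, inhibitory receptors 0.73, T cell receptor genes 0.24, immediate early genes (-0.14) 0.16, cytokine receptors 0.056 and lineage regulators 0.080. In the same setting cell cycle genes (-0.89) reached 0.96 for 1 dpi over Uninjured and interferon-stimulated genes (-0.39) 0.011 for 7 dpi over 3 dpi.

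Counts of genes called by edgeR depended on the fit. Against CD4 T cells 362 genes passed, and 177 by DESeq2, 722 without the filter on low UMIs, 6 without the library block, 233 without Scrublet doublets and 211 with at least 2 UMIs of the class genes, where *Id2* had a log2 fold change of 0.046 against -0.43. Leaving out 1 library gave 172 to 355. Against NK cells 840 passed, and 536 by DESeq2, 1280 without the filter, 214 without the block and 401 to 797 with 1 library left out. Between gates 203 passed, and 112 by DESeq2, 39 without the block, 131 without Scrublet doublets, 97 with at least 2 UMIs, 504 without mixed droplets and 26 to 156 with 1 library left out. Without mixed droplets 269 of the 362, 788 of the 840 and 186 of the 203 calls were kept. In this setting 29, 5 and 1 of the calls had the opposite sign, and 26, 19 and 15 were not tested. By DESeq2 177 of the 362, 532 of the 840 and 88 of the 203 were kept, and of the 203 a further 104 were given no adjusted p and 11 did not pass. Those without one include 45 of the named and listed genes of the gate comparison, among them *Tdrp*, *Bach2*, *Tcf7*, *Tbx21*, *Klrk1* and *Eomes*.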
